A study of Danio rerio with 23 samples.

Results

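The intestines of zebrafish starved for 21 days were compared with those of zebrafish starved for 3 days, which shows how the starved gut differed late and early in food deprivation. The comparison took every library whose label gave starved fish at 21 or 3 days post-starvation (dpS), which were 4 libraries at 21dpS and 4 at 3dpS, 8 of the 23 RNA-seq libraries of the series. Each library held the RNA of the dissected intestinal tract of 1 fish, with no sorting of cells. Fish came from 1 breeding pair of one sibship, and no mutation or transgene was given in the labels. From 60 days post-fertilization they were kept in 10 L tanks at 44 fish per tank, and the starved fish received no food while the fed fish received *Artemia* and a dry diet. The 4 libraries of fed fish at 21dpS and the 3 at 3dpS were used to mark genes that differed between the same days without starvation. They also entered the test of the difference between the changes, the scaling of printed CPM and some alternative fits. Starved fish at 21dpS were also older than starved fish at 3dpS by the days between, so longer starvation and greater age cannot be told apart within the starved fish. The age label read 81 days post-fertilization for every library, and libraries were grouped by the day in their titles.

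The fish intestine digests and absorbs food with enterocytes, whose brush border carries peptidases and transporters. Zebrafish have no stomach, and protein, starch and fat are first attacked in the lumen by proenzymes and enzymes that acinar cells of the exocrine pancreas secrete. In adult zebrafish that pancreas is spread along the mesentery beside the gut rather than gathered in one compact organ, so a dissected intestine can carry pancreatic RNA. Vertebrates deprived of food draw on glycogen, fat and then protein, and the intestine is among the organs that lose mass.

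Libraries of 21dpS starved fish held 574874 to 699321 reads assigned to genes, against 664440 to 1236436 in 3dpS starved fish, and 11804 to 12584 genes had a read in 21dpS starved fish, against 12255 to 13303 in 3dpS starved fish. Values below are CPM, read counts scaled to a common library total with the trimmed mean of M-values (TMM), and 3 reads were worth 4.29 to 5.22 CPM in 21dpS starved fish, against 2.43 to 4.52 CPM in 3dpS starved fish. A fish is named here by its tank and gut number, as Sta1Gut2 for gut 2 of starved tank 1. Values per fish are given in the order Sta1Gut2, Sta2Gut1, Sta2Gut2 and Sta2Gut3 at 21dpS and Sta1Gut1, Sta1Gut2, Sta2Gut2 and Sta2Gut3 at 3dpS. The highest total, 1236436, was that of 3dpS Sta1Gut2, beside at most 699321 in every other starved fish. Its printed CPM match even read counts only, so its reads may have been counted double, which was not tested. Its 2.43 CPM for 3 reads, taken like the others without TMM factors, may then be too low. The fits took its counts as given, and 60 genes passed the main test below without this fish. The 21dpS starved group had 1 fish of tank 1 and 3 of tank 2, whereas the 3dpS starved group had 2 of each. Whether reads were counted by strand was not stated, and MT-ND6, which is encoded on the strand opposite to most mitochondrial genes, had a mean of 18290 reads in the 8 starved libraries, against 4555 for MT-CO1, the next highest mitochondrial gene. A count therefore need not come from the named gene, and may come mainly from a gene on the opposite strand. How many genes this affects was not tested. A function given below is that of the named gene, whatever the source of its reads. For genes that passed and could be placed in the RefSeq assembly GRCz12tu, an overlapping gene with a symbol of its own is given. Placement was by symbol and reached 2539 of the 3609 tested genes. Of the placed genes 45% overlapped another gene, beside 69.2% of the 65 placed among the 100 most counted. *ERAP1*, *SLC25A15*, *ANPEP*, *ENPP7*, *mfi2* and genes without a symbol were among those not placed, so their overlaps were not checked. Overlapping loci known only by a LOC number, which *nolc1*, *hnf4a* and *si:ch211-106h4.4* have among others, are not listed. Neighbours that do not overlap are given for some genes only.

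Day of starvation accounted for 34.6% of the variance among the 8 libraries over the 500 most variable genes, the highest value of the 35 ways to split 8 fish into 4 and 4 (exact permutation test, p = 0.0286, the smallest that 4 against 4 can give). On the first principal component, which held 39.8% of that variance, the 21dpS starved fish lay at -19.13, -12.46, -3.95 and -18.81 and the 3dpS starved fish at 25.57, 8.71, 10.91 and 9.17. The groups did not overlap there, with 21dpS Sta2Gut2 nearest to the 3dpS fish and 3dpS Sta1Gut1 farthest from the 21dpS fish.

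Of 3609 genes tested with edgeR's quasi-likelihood test, 67 passed an adjusted p of 0.05 (Benjamini-Hochberg), or 1.86%. Of these, 29 genes (0.804%) were higher and 38 (1.05%) lower in 21dpS starved fish than in 3dpS starved fish. The genes that fell did so by more than the others rose, with a median log2 fold change of -2.80 among the 38 and 1.36 among the 29, beside -0.02 over all tested genes. In 66 of the 67 the values of the 4 and 4 fish did not overlap, which was so for 423 of all tested genes (11.7%). An unadjusted p under 0.05 was found for 724 genes (20.1%), of which 348 were higher and 376 lower. With tank as a block, 30 genes passed (7 higher), and without 21dpS Sta1Gut2, the 1 fish of tank 1 at 21dpS, 21 passed. The count was 31 without 21dpS Sta2Gut3, 32 without 3dpS Sta1Gut1 and 43 without 21dpS Sta2Gut1, and 22 of the 67 passed in a fit of all 15 starved and fed libraries that shared one estimate of the spread.

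**Figure D1:**
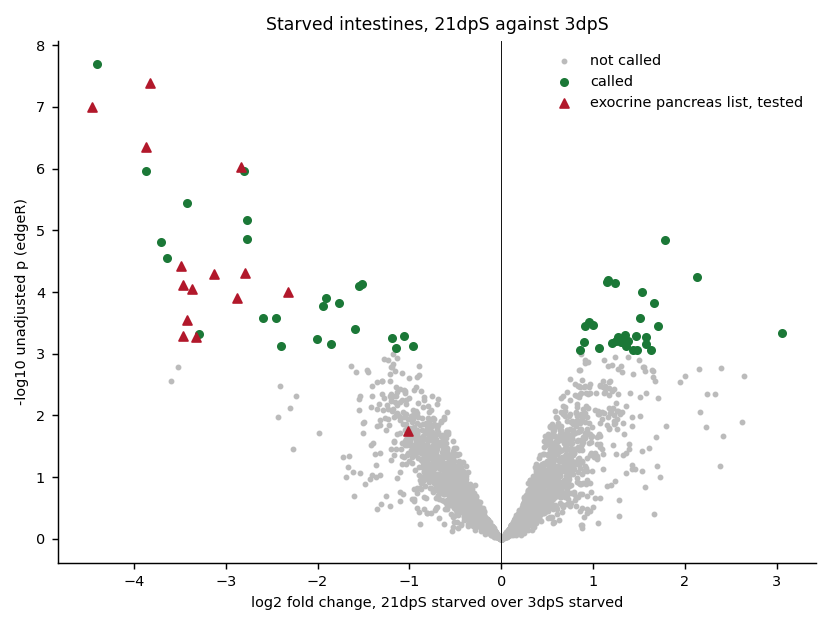
Change of each of the 3609 tested genes in 21dpS starved fish relative to 3dpS starved fish, with the log2 fold change on the horizontal axis and the -log10 of the unadjusted p from edgeR on the vertical axis. The 67 genes that passed are green and the 15 tested exocrine pancreas genes are red triangles, which lie at negative fold changes down to -4.45.

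Genes of the exocrine pancreas were the largest fixed group among those that fell. The list of 25 such genes (digestive proenzymes, amylase, lipases and acinar regulators) had 15 members with enough reads to test, and 14 of them fell in 21dpS starved fish, beside 1.05% of all tested genes. The median log2 fold change of the list was -3.37, and all 15 tested members were below 0, beside a median of -0.02 over all tested genes. A member could reach the test through its reads in 3dpS starved fish alone, which favours members that fall. Only 3 members had at least 10 reads in every library. With no filter on low counts the median was -3.23 over 23 members. The summed level of the list was 279.9, 452, 188 and 198 CPM in 21dpS starved fish, against 3605, 1506, 1349 and 3262 CPM in 3dpS starved fish. Each 21dpS starved fish lay below each 3dpS starved fish, and the lowest 3dpS starved fish was Sta2Gut2. Since each library was a whole dissected intestine, fewer acinar cells in the sample and less RNA per acinar cell cannot be told apart.

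Among the proteases, *prss59.1* (ENSDARG00000079274), a trypsin-like serine protease, had 25.6, 52.4, 16.3 and 35.4 CPM in 21dpS starved fish, against 572, 323, 273 and 588 CPM in 3dpS starved fish. It was 14.1-fold lower at 21dpS (log2 fold change -3.82 ± 0.37 (SE), adjusted p = 7.30e-05). Its tandem neighbour *prss59.2* (ENSDARG00000073742) is a near-identical copy, so how reads were shared between them is uncertain, and it was 14.6-fold lower (log2 fold change -3.87 ± 0.45 (SE), adjusted p = 0.000404). The elastase gene *ela3l* (ENSDARG00000007276) had 3.198, 1.81, 1.63 and 2.95 CPM in 21dpS starved fish, against 69.1, 39.95, 33.5 and 77.9 CPM in 3dpS starved fish, and it was 21.9-fold lower (log2 fold change -4.45 ± 0.47 (SE), adjusted p = 0.000123). All 4 of its 21dpS values were below the worth of 3 reads, so its level at 21dpS rests on very few reads. The 3dpS starved fish Sta1Gut1 and Sta2Gut3 held the higher values of all 3 of these genes, and none of their values overlapped with those of 21dpS starved fish.

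The starch-digesting enzyme gene *amy2a* (ENSDARG00000013856), a pancreatic amylase, had 73.6, 110.3, 44.03 and 69.3 CPM in 21dpS starved fish, against 718, 305, 332 and 668 CPM in 3dpS starved fish. It was 7.11-fold lower (log2 fold change -2.83 ± 0.35 (SE), adjusted p = 0.000570), with Sta1Gut1 and Sta2Gut3 again the highest of the 3dpS starved fish. The members that follow were chosen after their values were seen. Proteases that cut dietary protein fell, with log2 fold changes of -2.79 (adjusted p = 0.0114) for trypsin (*try*), -3.33 (adjusted p = 0.0401) for chymotrypsinogen B1 (*ctrb1*), -3.12 (adjusted p = 0.0114) for carboxypeptidase A1 (*cpa1*) and -3.46 (adjusted p = 0.0124) for carboxypeptidase B1 (*cpb1*). The bile salt-dependent lipase genes *cel.1* and *cel.2*, which share a locus with *gtf3c5*, were at -3.42 (adjusted p = 0.0296) and -3.37 (adjusted p = 0.0133), and the elastase gene *ela2l* at -2.32 (adjusted p = 0.0139). The adjusted p with tank as a block was 0.0737 for *cel.1* (range over its alternatives 4.20e-15 to 0.120) and 0.0681 for *ctrb1* (3.57e-10 to 0.205). Leaving out one fish ended the call of *ctrb1* in 5 of 8 fits (without 21dpS Sta1Gut2, 21dpS Sta2Gut2, 21dpS Sta2Gut3, 3dpS Sta1Gut1 or 3dpS Sta2Gut3, range 0.00935 to 0.145), of *cel.1* in 4 (without 21dpS Sta1Gut2, 21dpS Sta2Gut2, 21dpS Sta2Gut3 or 3dpS Sta2Gut3, range 0.00227 to 0.111), of *cel.2* in 3 (without 21dpS Sta1Gut2, 21dpS Sta2Gut1 or 21dpS Sta2Gut3), of *ela2l* in 2 (without 21dpS Sta1Gut2 or 21dpS Sta2Gut3) and of *try*, *cpa1* and *cpb1* in 1 (without 21dpS Sta1Gut2). The member that did not pass was *pdia2*, a protein disulfide isomerase of acinar cells, at -1.02 (adjusted p = 0.169).

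The count of 14 became 5 of 16 tested members without 21dpS Sta1Gut2 and 8 of 16 without 21dpS Sta2Gut3. It was 3 of 3 tested where a gene needed at least 10 reads in every library of both groups. In a fit of all 15 starved and fed libraries with a shared spread it was 1 of 17. With tank as a block 11 of 15 tested members passed, and within tank 2 alone 8 of 15 passed. The summed level of the list differed among fed fish too, with 473, 1339, 535 and 302 CPM in 21dpS fed fish, against 7229, 701 and 929 CPM in 3dpS fed fish. The 3dpS fed fish Fed1Gut1 stood far above the other fed fish, which lay between 302.2 and 1339 CPM. The list had a median of -2.06 in fed fish over its 13 members tested there, and all 13 were below 0 but none passed.

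Further genes outside the list fell by similar amounts. *zgc:92590* (ENSDARG00000040282) had 9.595, 5.42, 4.89 and 5.895 CPM in 21dpS starved fish, against 176, 109.5, 69.4 and 186 CPM in 3dpS starved fish, and it fell 21.2-fold (log2 fold change -4.4 ± 0.41 (SE), adjusted p = 7.30e-05). *cela1.3* (ENSDARG00000043173), an elastase gene, had 20.8, 19.9, 9.79 and 11.8 CPM in 21dpS starved fish, against 187, 59.19, 73.2 and 93.2 CPM in 3dpS starved fish (log2 fold change -2.77 ± 0.41 (SE), adjusted p = 0.00275). *cpa5* (ENSDARG00000021339), a carboxypeptidase A that marks mast cells in zebrafish, stood on the neutrophil and mast cell list and had 38.4, 65.1, 19.6 and 25.1 CPM in 21dpS starved fish, against 443, 225, 236 and 617 CPM in 3dpS starved fish (log2 fold change -3.43 ± 0.43 (SE), adjusted p = 0.00165). For none of the 3 did the groups overlap, and among 3dpS starved fish Sta1Gut1 and Sta2Gut3 held the highest values of each. Whether *cpa5* reads came from mast cells or from pancreatic tissue was not tested. Next to list members, *bco2l*, a carotenoid-cleaving enzyme gene near *ela3l*, was at -3.53 (adjusted p = 0.0667), and *alas2*, a haem synthesis gene of red blood cells near *ela2l*, was at -2.41 (adjusted p = 0.0906). Neither passed. When the listed exocrine pancreas genes and every gene overlapping them or within 5 kb (43 genes) were left out before fitting, 28 genes passed. Of these 12 were higher and 16 lower. Genes outside the list, such as *zgc:92590*, stayed in that fit.

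Other genes that fell strongly were not named as digestive enzymes, and whether their reads came from gut or pancreatic tissue was not tested. *pglyrp6* (ENSDARG00000103642), a peptidoglycan recognition protein that binds bacterial cell wall, had 4.798, 7.23, 11.4 and 7.37 CPM in 21dpS starved fish, against 78.5, 60.7, 216 and 82.5 CPM in 3dpS starved fish, and it fell 14.6-fold (log2 fold change -3.87 ± 0.48 (SE), adjusted p = 0.000570). *si:ch211-106h4.4* (ENSDARG00000093629) overlaps *mrc1b*, a scavenger receptor gene, and had 12.8, 23.5, 30.99 and 38.3 CPM in 21dpS starved fish, against 193, 247, 104 and 165 CPM in 3dpS starved fish (log2 fold change -2.8 ± 0.36 (SE), adjusted p = 0.000570). *zgc:154142* (ENSDARG00000100792) overlaps *otx2a* and had 4.798, 7.23, 3.26 and 5.895 CPM in 21dpS starved fish, against 56.5, 35.5, 18.6 and 32.1 CPM in 3dpS starved fish (log2 fold change -2.77 ± 0.44 (SE), adjusted p = 0.00463). The groups did not overlap for any of them, and 3dpS Sta2Gut2 held the highest *pglyrp6* value but the lowest value of *si:ch211-106h4.4* and *zgc:154142* among 3dpS starved fish. For *si:ch211-106h4.4* the fed fish averaged 287 ± 93.9 CPM in 21dpS fed fish (SD, n = 4) and 384 ± 80.5 CPM in 3dpS fed fish (SD, n = 3), and the change in starved fish minus the change in fed fish was -2.32 ± 0.48, unadjusted p = 0.000107, adjusted p = 0.272 by edgeR. The same difference for *zgc:154142* was -2.5 ± 0.55, unadjusted p = 0.000215, adjusted p = 0.272. Neither passed after adjustment. For *pglyrp6* the fed log2 fold change was -2.14 (unadjusted p = 0.162), and the difference was -1.65 ± 1.62, unadjusted p = 0.328 by edgeR.

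**Figure D2:**
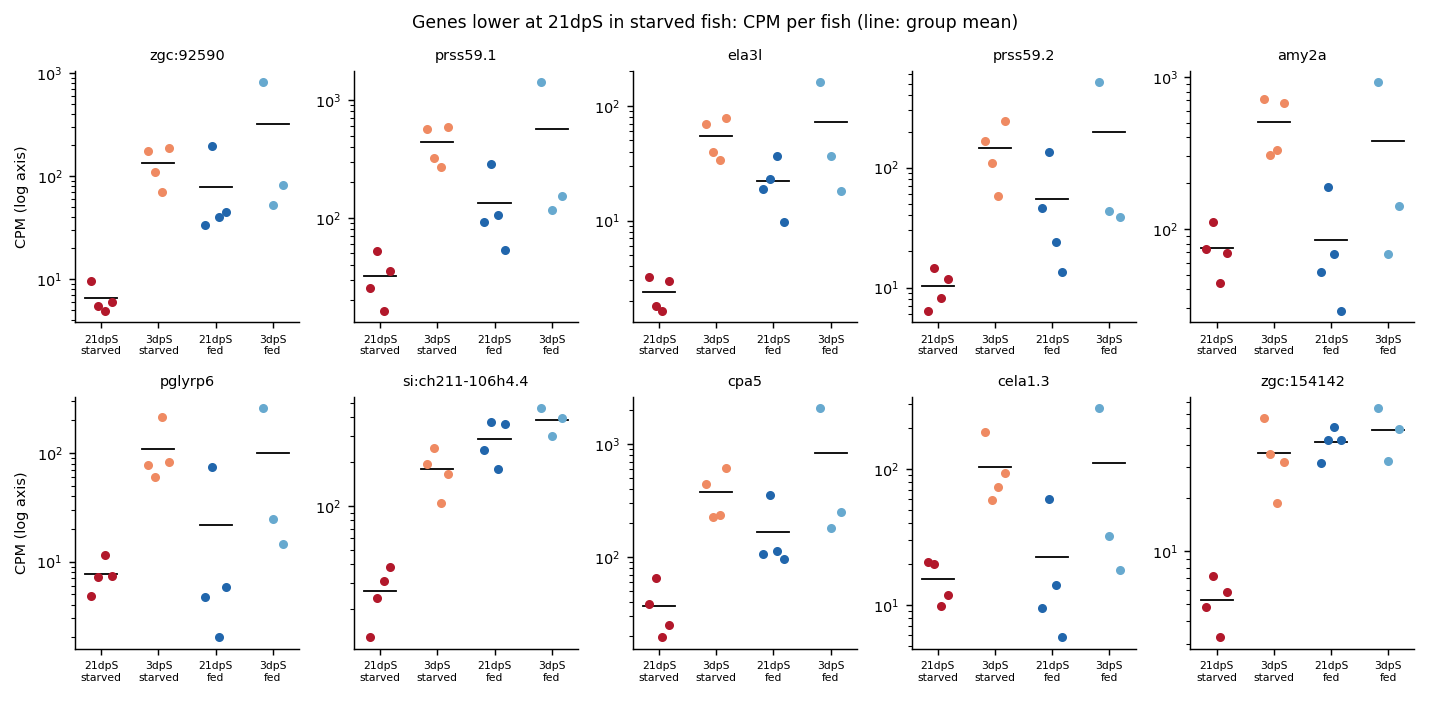
CPM per fish (log axis) of the 10 genes with the smallest p among those that fell, in 21dpS starved, 3dpS starved, 21dpS fed and 3dpS fed fish, with a point for each fish and a line at the group mean. No 21dpS starved point reaches a 3dpS starved point in any panel.

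Of 36 genes taken from the text of the study, which picked them on these same samples, 30 were tested and 6 fell, beside 1.05% of all tested genes, and their direction is not independent evidence. Their median was -0.4, and -0.26 without 21dpS Sta1Gut2. Of 42 symbols sought, *gltscr2*, *c6*, *c7*, *erap1*, *erap1a* and *erap1b* found no match by name and were left out. *ERAP1*, *c6.2* and *c7b*, which bear related symbols, are given below and all had log2 fold changes above 0. *ERAP1* passed, so the absence of risers in this list rests partly on the matching of names. *elovl2* (ENSDARG00000045414), an elongase of long polyunsaturated fatty acids, had 3.198, 12.7, 14.7 and 7.37 CPM in 21dpS starved fish, against 28.3, 38.5, 35.96 and 36.7 CPM in 3dpS starved fish (log2 fold change -1.95 ± 0.39 (SE), adjusted p = 0.0194), with 67.1 ± 19.2 CPM in 21dpS fed fish (SD, n = 4) and 97.9 ± 35.4 CPM in 3dpS fed fish (SD, n = 3). Its groups did not overlap, and 21dpS Sta1Gut2 had the lowest value. Its adjusted p was 0.0790 at most when a fish was left out, and it passed in 6 of the 8 such fits (not without 21dpS Sta1Gut2 or 21dpS Sta2Gut3). *dmgdh* (ENSDARG00000025703), the dimethylglycine dehydrogenase of choline breakdown, had 84.8, 112, 84.8 and 23.6 CPM in 21dpS starved fish, against 650.1, 185, 449 and 475 CPM in 3dpS starved fish (log2 fold change -2.59 ± 0.48 (SE), adjusted p = 0.0281). *hnf4a* (ENSDARG00000021494), a nuclear receptor that drives gene expression in gut and liver epithelium, had 15.99, 7.23, 8.15 and 11.8 CPM in 21dpS starved fish, against 26.7, 35.5, 24.8 and 39.7 CPM in 3dpS starved fish (log2 fold change -1.59 ± 0.35 (SE), adjusted p = 0.0362). The groups did not overlap for either gene. In fed fish the log2 fold change was -1.36 for *dmgdh* and -0.68 for *hnf4a*. The difference of the changes was -1.17 ± 0.96 (unadjusted p = 0.245) and -0.86 ± 0.63 (unadjusted p = 0.186) by edgeR. With tank as a block the adjusted p was 0.0681 for *dmgdh* (range over its alternatives 9.92e-15 to 0.0982) and 0.0681 for *hnf4a* (range 0.0255 to 0.150). Leaving out one fish gave 0.00209 to 0.106 for *dmgdh*, which passed in 2 of 8 fits (without 21dpS Sta2Gut3 or 3dpS Sta1Gut2), and 0.0448 to 0.107 for *hnf4a*, which passed in 1 of 8 (without 3dpS Sta2Gut2). The others of the 6 were *prss59.1*, *prss59.2* and *cpa5*, given above.

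Genes of the digestive surface of the enterocyte lay below 0 as well, by smaller amounts. Of 45 genes for brush border peptidases and nutrient transporters 23 were tested, 21 were below 0 and 2 fell, beside 1.05% of all tested genes that fell and 1729 of all 3609 above 0. The list median was -0.62, and -0.15 within tank 2 alone. *ANPEP* (ENSDARG00000103878), the aminopeptidase N that clips amino acids from peptides, had 272, 172, 254 and 338 CPM in 21dpS starved fish, against 589, 463, 579 and 429 CPM in 3dpS starved fish (log2 fold change -1.06 ± 0.24 (SE), adjusted p = 0.0401). *ENPP7* (ENSDARG00000053526), the alkaline sphingomyelinase of the brush border, had 57.6, 112, 121 and 78.1 CPM in 21dpS starved fish, against 181, 225, 172 and 225 CPM in 3dpS starved fish (log2 fold change -1.19 ± 0.27 (SE), adjusted p = 0.0403). The groups did not overlap for either. The adjusted p with tank as a block was 0.0681 for *ANPEP* (range over its alternatives 0.00349 to 0.259) and 0.0564 for *ENPP7* (range 0.00448 to 0.327), and each passed in 1 of the 8 fits that left out one fish (*ANPEP* without 3dpS Sta1Gut2 with a range of 0.0456 to 0.131, *ENPP7* without 21dpS Sta2Gut2 with 0.0325 to 0.129). Chosen after their values were seen, *asah2* (neutral ceramidase) had a log2 fold change of -1.17 (adjusted p = 0.0522) and *dpp4* (a dipeptidyl peptidase) -1.2 (adjusted p = 0.0667). The 2 members above 0 were *slc10a2*, the ileal bile acid transporter, at 0.13 (adjusted p = 0.858), and *tmprss15*, enteropeptidase, which activates trypsinogen in the gut lumen and was chosen after its values were seen. *tmprss15* had 141, 295, 189 and 97.3 CPM in 21dpS starved fish, against 40.8, 99.1, 22.3 and 50.4 CPM in 3dpS starved fish (log2 fold change 1.67 ± 0.44 (SE), adjusted p = 0.0829), so its groups overlapped and it did not pass, and it averaged 14.9 ± 8.06 CPM in 21dpS fed fish (SD, n = 4) and 18.1 ± 14.2 CPM in 3dpS fed fish (SD, n = 3).

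The summed brush border level was 3774 to 5926 CPM in 21dpS starved fish, against 5598 to 7126 CPM in 3dpS starved fish, a narrow overlap. Fed fish differed between the same days too, with 3861 to 4495 CPM in 21dpS fed fish, against 6126 to 7096 CPM in 3dpS fed fish, and a list median of -0.69 with 24 of 25 tested members below 0. The separate list of 16 intestinal epithelial markers shares *ANPEP* and the peptide transporter gene *SLC15A1* with it. It had 11 tested members, 10 of them below 0, and *hnf4a* and *ANPEP* fell, beside 1.05% of all tested genes. The median log2 fold change of the list was -0.6 in starved fish and -0.04 in fed fish, and its summed level was 2226 to 3276 CPM in 21dpS starved fish, against 3323 to 4124 CPM in 3dpS starved fish. Its structural marker *vil1* (villin) and the fatty acid-binding protein gene *fabp2*, chosen after their values were seen, had log2 fold changes of -0.45 (adjusted p = 0.287) and -0.52 (adjusted p = 0.215) and did not pass.

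The genes that rose were of mixed function and changed by smaller factors. ENSDARG00000097996, which has no symbol, had 249.5, 327, 186 and 228 CPM in 21dpS starved fish, against 50.3, 68.1, 54.6 and 102 CPM in 3dpS starved fish (log2 fold change 1.78 ± 0.28 (SE), adjusted p = 0.00463). *ERAP1* (ENSDARG00000013024), an aminopeptidase of the endoplasmic reticulum that trims peptides for MHC class I, had 68.8, 68.7, 35.9 and 67.8 CPM in 21dpS starved fish, against 7.85, 7.399, 21.1 and 16.8 CPM in 3dpS starved fish (log2 fold change 2.13 ± 0.38 (SE), adjusted p = 0.0121). *SLC25A15* (ENSDARG00000062271), the mitochondrial ornithine carrier of the urea cycle, had 771, 792, 572 and 598 CPM in 21dpS starved fish, against 311, 354, 259 and 248 CPM in 3dpS starved fish (log2 fold change 1.16 ± 0.21 (SE), adjusted p = 0.0124). The groups did not overlap for any of the 3. *SLC25A15* had an adjusted p of 0.0504 without 21dpS Sta1Gut2. In fed fish the log2 fold change was 0.08 for *ERAP1* and -0.44 for *SLC25A15*, and the change in starved fish minus that in fed fish was 2.1 ± 0.6, unadjusted p = 0.00212, adjusted p = 0.342 for *ERAP1* and 1.65 ± 0.42, unadjusted p = 0.000862, adjusted p = 0.342 for *SLC25A15* by edgeR.

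*nolc1* (ENSDARG00000024561), a nucleolar phosphoprotein used in ribosome assembly, had 30.4, 47.01, 30.99 and 56.01 CPM in 21dpS starved fish, against 15.7, 13.3, 13.6 and 12.2 CPM in 3dpS starved fish (log2 fold change 1.51 ± 0.32 (SE), adjusted p = 0.0281), without overlap between the groups. It was the 1 member of 57 tested on the ribosome biogenesis list that passed, beside 0.804% of all tested genes that rose. *nolc1* had too few reads to be tested in fed fish alone. There it averaged 20.2 ± 13.8 CPM in 21dpS fed fish (SD, n = 4) and 5.22 ± 1.94 CPM in 3dpS fed fish (SD, n = 3). The difference of the changes was -0.32 ± 0.66, unadjusted p = 0.636 by edgeR. *mtrex* (ENSDARG00000013457), the RNA helicase of the nuclear exosome, which overlaps *plpp1a*, averaged 3841 ± 521 CPM in 21dpS starved fish and 1889 ± 372 CPM in 3dpS starved fish (SD, n = 4 each) (log2 fold change 0.96 ± 0.2 (SE), adjusted p = 0.0307). *serinc4* (ENSDARG00000044815), a serine incorporator family gene within 5 kb of *adamtsl5*, averaged 638 ± 80.3 CPM in 21dpS starved fish and 306 ± 64.9 CPM in 3dpS starved fish (SD, n = 4 each) (log2 fold change 1.0 ± 0.22 (SE), adjusted p = 0.0334). With tank as a block these 3 had adjusted p of 0.0681 (*nolc1*, range over its alternatives 0.00453 to 0.150), 0.0585 (*mtrex*, 0.000108 to 0.330) and 0.0554 (*serinc4*, 0.000308 to 0.139). Of the 8 fits that left out one fish, *nolc1* passed in 2 (without 21dpS Sta1Gut2 or 21dpS Sta2Gut2, range 0.0261 to 0.0958), *mtrex* in 3 (without 21dpS Sta2Gut2, 3dpS Sta2Gut2 or 3dpS Sta2Gut3, range 0.0286 to 0.126) and *serinc4* in 2 (without 21dpS Sta2Gut2 or 3dpS Sta1Gut2, range 0.0325 to 0.0820).

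The rest of the 10 genes that rose with the smallest p were *aarsd1* (ENSDARG00000015747), an alanyl-tRNA editing protein gene that lies next to *g6pc1a.2*, at 1.23 (adjusted p = 0.0124), *si:dkey-14d8.1*, which overlaps *zgc:113263*, at 1.53 (adjusted p = 0.0139), *si:ch211-163l21.7*, which overlaps *elapor1*, at 1.66 (adjusted p = 0.0183) and ENSDARG00000080630 at 1.16 (adjusted p = 0.0124). *aarsd1* had 3909, 4229, 3751 and 3136 CPM in 21dpS starved fish, against 1201, 1940, 1099 and 1879 CPM in 3dpS starved fish, and its adjusted p was 0.0512 without 3dpS Sta1Gut1. In fed fish its log2 fold change was 1.23 (unadjusted p = 0.3025), and the difference of the changes was 0.08 ± 1.11, unadjusted p = 0.943 by edgeR. ENSDARG00000080630 was marked as drifting, with a log2 fold change of 0.62 in fed fish (unadjusted p = 0.030 by edgeR). *si:dkey-14d8.1* had an adjusted p of up to 0.0587 without 21dpS Sta1Gut2 or 21dpS Sta2Gut3, and *si:ch211-163l21.7* of 0.0504 without 21dpS Sta1Gut2. Chosen after its values were seen, ENSDARG00000080401 had the highest fold change of the 67, at 3.05 (adjusted p = 0.0400), with 55.97, 99.5, 47.3 and 78.1 CPM in 21dpS starved fish, against 21.98, 5.92, 0 and 6.11 CPM in 3dpS starved fish. It passed in 3 of the 8 fits that left out one fish (without 21dpS Sta2Gut2, 3dpS Sta1Gut1 or 3dpS Sta2Gut2, range 0.00202 to 0.0987) and had an adjusted p of 0.0681 with tank as a block (range over its alternatives 1.28e-12 to 0.0681). Also chosen after its values were seen, *map3k4*, a MAP kinase kinase kinase gene that overlaps *agpat4*, was the 1 gene of the 67 whose groups overlapped (log2 fold change 1.36, adjusted p = 0.0449), and it passed in 1 of the 8 fits that left out one fish (without 21dpS Sta2Gut2, range 0.00714 to 0.140). Its adjusted p was 0.0737 with tank as a block (range over its alternatives 5.27e-05 to 0.433), and in fed fish its log2 fold change was 1.64 (unadjusted p = 0.000155).

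**Figure D3:**
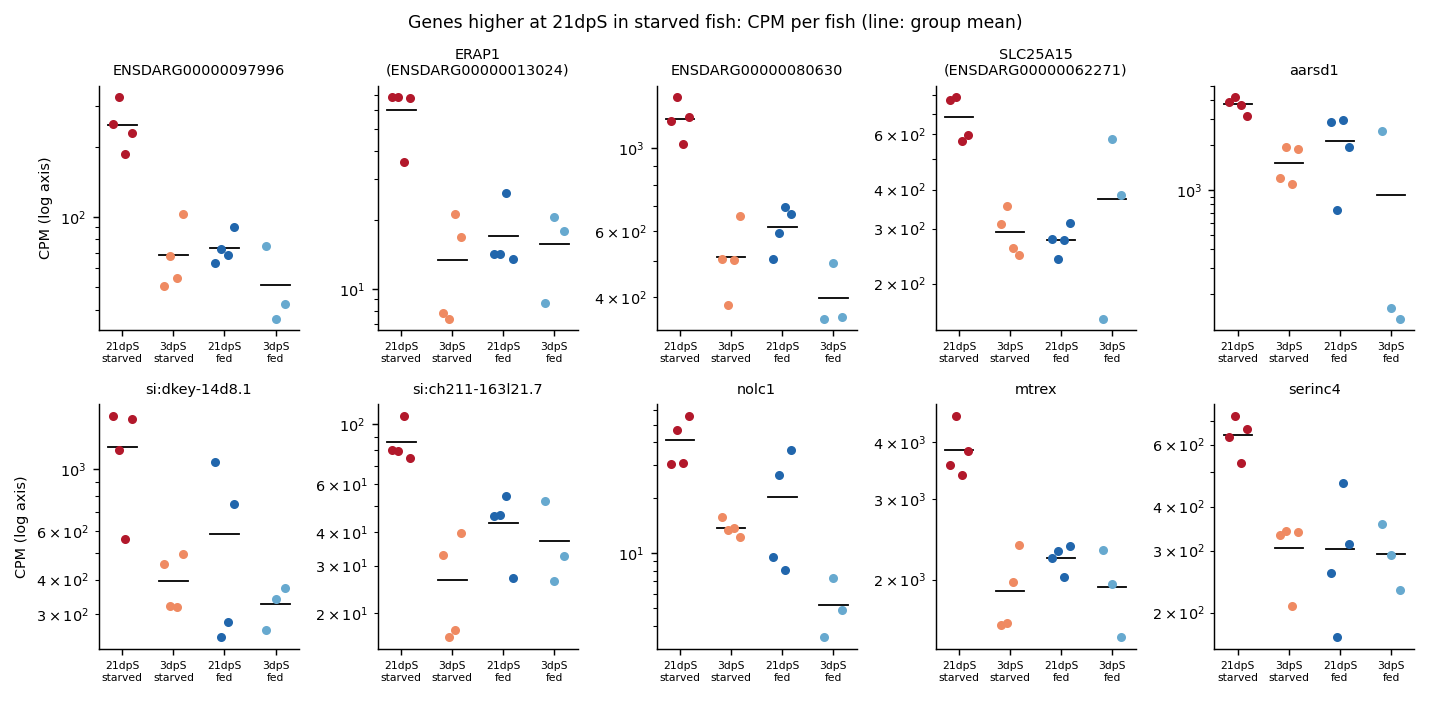
CPM per fish (log axis) of the 10 genes with the smallest p among those that rose, in 21dpS starved, 3dpS starved, 21dpS fed and 3dpS fed fish, with a point for each fish and a line at the group mean. Each 21dpS starved point lies above each 3dpS starved point, and the gaps are narrower than for the genes that fell.

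Lists for nutrient handling had members on one side of 0 without passing singly. Of 46 genes for lipid uptake and lipoprotein assembly 27 were tested, 25 were below 0 and none passed, with a median of -0.47 in starved fish (-0.3 with no filter) and 0.09 in fed fish. Its summed level was 2600 to 3866 CPM in 21dpS starved fish, against 3529 to 4682 CPM in 3dpS starved fish. Chosen after their values were seen, *scp2a* (sterol carrier protein) had a log2 fold change of -1.23 (adjusted p = 0.0603), *pla2g12b* (a phospholipase family protein of lipoprotein assembly) -0.85 (adjusted p = 0.124), *cd36* (a fatty acid receptor) -0.75 (adjusted p = 0.174) and *mttp* (the microsomal triglyceride transfer protein) -0.8 (adjusted p = 0.191). In edgeR's test of the change in starved fish minus that in fed fish, 8 of 28 tested members had an unadjusted p under 0.05. All 8 had a lower change in starved fish, beside 174 of 4419 over all genes, and none passed after adjustment.

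Sterol synthesis genes stood on the other side, although none of the 6 tested of 28 passed. The median log2 fold change of the list was 0.42 in starved fish and -1.33 in fed fish. The starved median was 0.08 without 21dpS Sta2Gut2, 0.27 without 3dpS Sta1Gut1 and 0.26 without 3dpS Sta1Gut2. With DESeq2 it was 0.18 over all 28 members, which took in those with few reads. In edgeR's test of the difference 5 of 8 tested members had an unadjusted p under 0.05, all with a higher change in starved fish. Over all genes this was so for 182 of 4419. *idi1* (ENSDARG00000019976), the isopentenyl-diphosphate isomerase of that pathway, had 79.96, 54.2, 109 and 82.5 CPM in 21dpS starved fish, against 43.97, 59.19, 76.9 and 71.8 CPM in 3dpS starved fish, a log2 fold change of 0.31 (adjusted p = 0.568). In fed fish it averaged 74.8 ± 19.5 CPM in 21dpS fed fish (SD, n = 4) and 215 ± 55.8 CPM in 3dpS fed fish (SD, n = 3), and the difference of the changes was 1.89 ± 0.41, unadjusted p = 0.000171, adjusted p = 0.272. Chosen after their values were seen, *srebf2*, the transcription factor of sterol synthesis, had 0.71 in starved fish and -1.33 in fed fish, and *hmgcs1*, the HMG-CoA synthase, 0.52 and -0.95. The value of *hmgcs1* in starved fish was -0.16 within tank 2 alone.

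Ribosomal protein genes lay evenly around 0 in starved fish. Of 84 such genes 71 were tested, 35 were above 0, none passed, and the median was -0.01 (-0.15 to 0.13 over the alternative fits that kept a filter). Their median in fed fish was 0.78, with 53 of 55 tested members above 0 and none that passed. For the difference of the changes 14 of 74 tested members had an unadjusted p under 0.05 by edgeR. All 14 had a lower change in starved fish, beside 174 of 4419 over all genes, and none passed after adjustment. Ribosome biogenesis genes had a median of 0.19 over 57 tested of 118, with 38 above 0. That median ranged between -0.15 and 0.26 over the alternative fits that kept a filter. Over all 118 members it was 0.30 with DESeq2 and 0.34 with no filter. Translation factors had a median of -0.25 (38 tested of 83, none passed, 9 above 0), against 0.3 in fed fish. Cell cycle and DNA replication genes had 9 of 10 tested members above 0 and a median of 0.23, but none passed, and the median was 0.1 without 3dpS Sta1Gut1, 0.15 without 21dpS Sta2Gut1 and 0.38 without 3dpS Sta2Gut2. *rfc5*, a subunit of the clamp loader, averaged 379.8 ± 99.7 CPM in 21dpS starved fish and 188 ± 39.3 CPM in 3dpS starved fish (SD, n = 4 each), a log2 fold change of 0.95 (adjusted p = 0.0625). *cdc6*, which loads the replicative helicase, averaged 453 ± 214 CPM in 21dpS starved fish and 160.1 ± 61.01 CPM in 3dpS starved fish (SD, n = 4 each), a log2 fold change of 1.43 (adjusted p = 0.0728).

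Genes for metals and foreign compounds were mostly lower without passing. Of 39 metal handling genes 7 were tested and 6 were below 0, with a median of -0.88 in starved fish and -0.75 in fed fish. Their summed level was 589.5 to 723 CPM in 21dpS starved fish, against 954 to 1108 CPM in 3dpS starved fish, without overlap. *tfr1b*, a transferrin receptor that takes up iron, had 245, 130.2, 217 and 169.5 CPM in 21dpS starved fish, against 366, 364, 264 and 368 CPM in 3dpS starved fish (log2 fold change -0.9 (adjusted p = 0.0750)), and *slc31a1*, the copper importer, had 235, 253, 241 and 196 CPM in 21dpS starved fish, against 335, 441, 353 and 299.5 CPM in 3dpS starved fish (log2 fold change -0.69 (adjusted p = 0.106)). Neither passed, although neither had overlapping groups, and both were lower in 21dpS fed fish than in 3dpS fed fish as well (-1.03 and -0.97). Xenobiotic and glutathione genes had a median of -0.54 (28 tested of 66, 23 below 0, none passed). Lists for energy supply had smaller medians and none passed, at -0.29 for fatty acid oxidation (12 tested), -0.32 for nuclear genes of mitochondrial electron transport (29 tested) and -0.35 for lysosomal enzymes (30 tested). *bhlhe41* (ENSDARG00000041691), a repressor in the circadian clock, had 59.17, 34.4, 37.5 and 45.7 CPM in 21dpS starved fish, against 101, 111, 89.3 and 73.3 CPM in 3dpS starved fish (log2 fold change -1.15 ± 0.27 (SE), adjusted p = 0.0462), without overlap, but passed in 0 of the 8 fits that left out one fish (adjusted p 0.0514 to 0.146) and had an adjusted p of 0.0737 with tank as a block (range over its alternatives 0.0123 to 0.305). It was the 1 member of 10 tested circadian genes that passed, beside 1.05% of all tested genes that fell. The median of fatty acid oxidation was -0.53 without 21dpS Sta2Gut3, and that of lysosomal enzymes -0.04 and of xenobiotic genes -0.29 within tank 2 alone. With DESeq2 the median of metal handling was -0.3 over 31 members and that of electron transport -0.15 over 96. Those medians took in members with too few reads for the main test.

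In further lists for protein and energy turnover no member passed. The amino acid stress list, which holds targets of the response to missing amino acids, had 9 of 11 tested members above 0 and a median of 0.36 (0.13 without 21dpS Sta2Gut3). Glycolysis genes had 8 of 12 above 0 and a median of 0.17, and genes for glucose production and pyruvate use 4 of 10 above 0 and a median of -0.27. Cytosolic chaperones had a median of -0.23 over 16 tested in starved fish and 0.42 over 15 tested in fed fish (starved -0.13 without 21dpS Sta1Gut2 and -0.09 without 3dpS Sta2Gut2), ER chaperones 0.03 over 21 in starved fish, the proteasome -0.1 over 19 and the 13 protein-coding genes of the mitochondrial genome -0.12. Autophagy genes and ubiquitin ligases of muscle wasting had 7 tested of 39, 3 of them above 0 and a median of -0.14. Apart from the amino acid stress and cytosolic chaperone lists, the starved medians in this group of lists changed sign under at least 1 alternative fit or with a fish left out.

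Few immune genes passed. Of 22 antigen presentation genes 13 were tested and 1, *ERAP1*, rose, beside 0.804% of all tested genes, while 11 were below 0 and the median was -0.44. Markers of macrophages and dendritic cells had 7 of 7 tested members below 0 and a median of -0.62, with none that passed. That median was -0.35 without 21dpS Sta2Gut1 and -0.35 without 21dpS Sta2Gut2. With DESeq2 it was -0.22 over 23 members, which took in those with few reads. Interferon-stimulated genes had a median of -0.04 over 7 tested (-0.17 to 0.24 over the alternative fits that kept a filter) and complement genes -0.46 over 11. The complement median was -0.11 without 3dpS Sta2Gut2, -0.14 without 3dpS Sta1Gut1, -0.25 without 21dpS Sta1Gut2 and -0.77 without 3dpS Sta1Gut2. The summed level of the complement list lay on the other side, at 1544 to 2071 CPM in 21dpS starved fish, against 654 to 1591 CPM in 3dpS starved fish. *c6.2* and *c7b*, complement genes of the membrane attack complex that overlap each other, had log2 fold changes of 2.63 (adjusted p = 0.154) and 2.17 (adjusted p = 0.133), the second chosen after its values were seen. *mhc2dab*, an MHC class II gene, had 513, 45.2, 60.3 and 84.01 CPM in 21dpS starved fish, against 86.4, 122.8, 672 and 142 CPM in 3dpS starved fish, which overlapped widely, since 1 fish of each group stood far above its group.

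Markers of other tissues that a dissected intestine could hold were counted beside these results. Liver markers had 10 tested of 21, 9 below 0, none that passed and a median of -0.95 (-0.51 without 3dpS Sta2Gut2), with a summed level of 526 to 1163 CPM in 21dpS starved fish, against 332 to 2746 CPM in 3dpS starved fish. Red blood cell markers had a summed level of 2196, 3573, 961 and 651 CPM in 21dpS starved fish, against 12630, 4630, 7445 and 12550 CPM in 3dpS starved fish, so the groups did not overlap and Sta1Gut1 and Sta2Gut3 were the highest, as for the pancreas genes. Nearly all of it was *alas2*, the 1 tested member of 9, and 4 members were at 0 in all starved fish. *alas2* lies within 5 kb of the pancreas gene *ela2l*. Fed fish overlapped, with 1026 to 9958 CPM in 21dpS fed fish, against 2072 to 32750 CPM in 3dpS fed fish. Whether the *alas2* reads came from red blood cells or from the *ela2l* locus was not tested. The part of red blood cells in the results above was not tested either. Goblet and secretory cell markers had 0 tested of 8, so those cells could not be described at this depth, and the list of T and NK-like cells had 2 tested of 22, of which *polr1g* is an RNA polymerase I subunit gene matched through an older symbol. Smooth muscle markers had 7 tested of 17 and a median of -0.34 (-0.19 without 21dpS Sta2Gut3 and -0.16 without 3dpS Sta2Gut2). The list of ovary and egg yolk genes had 3 tested of 17, with a median of -0.53 in starved fish, which changed sign over the alternative fits, and of 8.21 over 3 tested in fed fish. The egg yolk protein genes *vtg1* and *vtg5*, which the liver of maturing females makes, varied from fish to fish and did not pass in starved fish (adjusted p = 0.883 and 0.241). *vtg5* had 3.198, 19.9, 3.26 and 5.895 CPM in 21dpS starved fish, against 3.14, 31.1, 13.6 and 51.95 CPM in 3dpS starved fish. In fed fish it had 22.1, 112, 22.1 and 71.2 CPM in 21dpS fed fish, against 0, 2.92 and 1.63 CPM in 3dpS fed fish, without overlap, and the change in starved fish minus that in fed fish was -6.67 ± 1.4, unadjusted p = 0.000246, adjusted p = 0.272 by edgeR.

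Fed fish of the same days showed how far the change was shared without starvation. Of 3401 genes tested in fed fish, 2 passed (0.0588%, and 0 without 21dpS Fed2Gut3, 3dpS Fed2Gut2 or 3dpS Fed2Gut3, 1 without 3dpS Fed1Gut1 and 6 without 21dpS Fed2Gut1), and 470 (13.8%) had an unadjusted p under 0.05. A gene was marked as drifting where fed fish moved in the direction of starved fish with an unadjusted p under 0.05, and 21 of the 67 genes were marked (31.3%), 5 that rose and 16 that fell, beside 350 of all 3609 tested (9.7%). *ela3l*, *cpa1*, *cpb1*, *cel.1*, *cel.2* and *cpa5* were among the marked genes that fell, as were *ANPEP*, *ENPP7* and *bhlhe41*. *zgc:92590*, *prss59.1*, *prss59.2* and *amy2a* were not marked, although their fed log2 fold changes were -2.0, -2.04, -1.84 and -2.14 (unadjusted p of 0.114, 0.0806, 0.150 and 0.0704). Only 59 of the 67 genes were tested in fed fish, and the rest could not be marked. Of the 59, 53 had a fed change in the same direction, whatever its p, and this share was not counted over all tested genes. A gene without a mark is thus not shown to be unshared with fed fish. The mark rests on few fish, and the 21 became 11 without 21dpS Fed1Gut1 and 13 without 21dpS Fed2Gut3.

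The difference between the changes in starved and fed fish was tested with edgeR over 4419 genes, and 0 passed (0%), with 356 (8.06%) at an unadjusted p under 0.05 and a smallest adjusted p of 0.272. With 3dpS starved Sta1Gut2 or 3dpS fed Fed1Gut1 left out, 1 gene passed. DESeq2 called 2 genes in the same test, *vtg5* (difference -6.81, adjusted p = 0.0145) and *si:ch211-106h4.4* (difference -2.33, adjusted p = 0.0316). Of the 67 genes, 20 had an unadjusted p under 0.05 for the difference. With no filter on low counts edgeR called 25 genes. A p that misses the threshold does not show that the changes were alike.

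**Figure D4:**
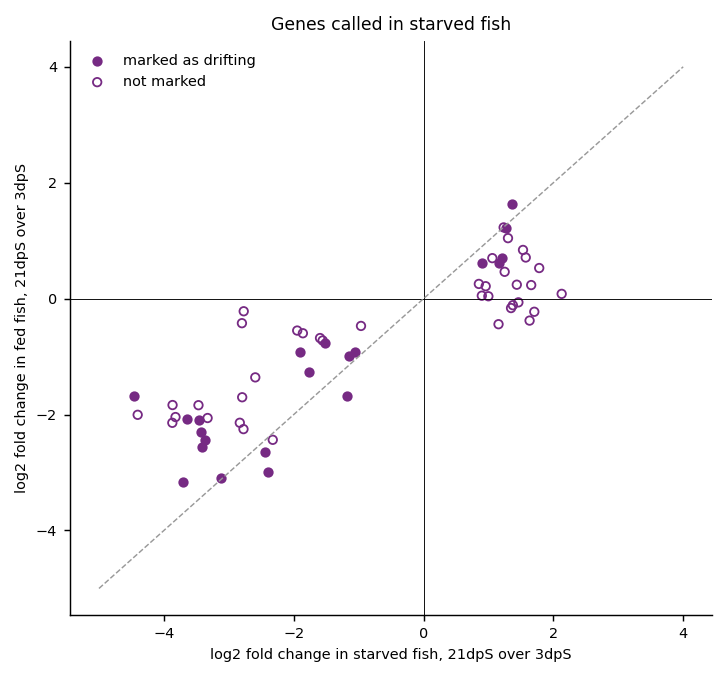
Log2 fold change of 21dpS over 3dpS in starved fish (horizontal axis) and in fed fish (vertical axis) for the 59 of the 67 genes that were also tested in fed fish, with filled points for genes marked as drifting and a dashed line where both changes are equal. The genes with a log2 fold change under -2 in starved fish lie below 0 in fed fish too, most of them above the line.

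**Figure D5:**
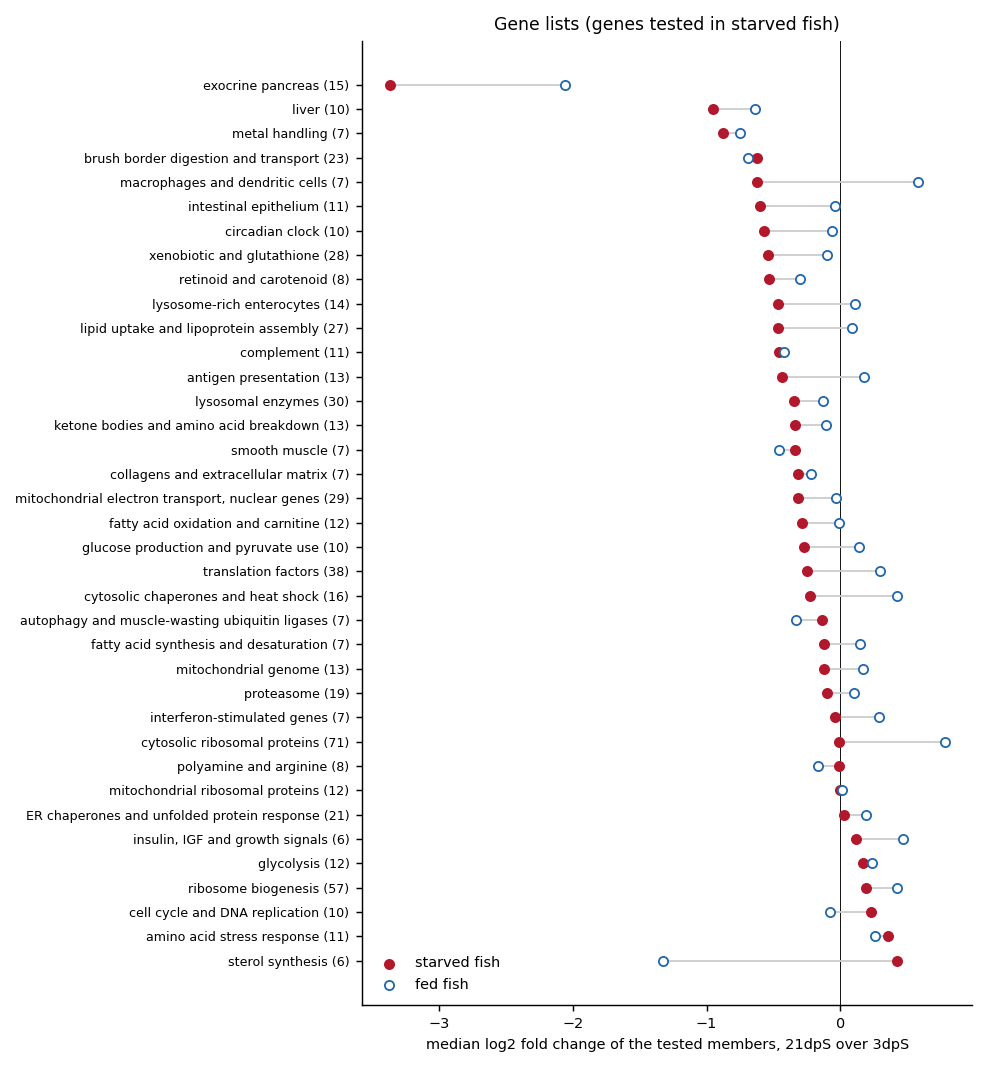
Median log2 fold change of 21dpS over 3dpS for each gene list with at least 5 members tested in both starved and fed fish, as filled points for starved fish and open points for fed fish. The exocrine pancreas list stands apart at -3.37 in starved fish and -2.06 in fed fish, and the sterol synthesis and ribosomal protein lists have starved and fed medians far apart.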

How the data were processed

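Total RNA of single intestines was depleted of ribosomal RNA (Ribozero Gold) and sequenced as 50 bp single-end reads. According to the study's methods and processing notes, the authors trimmed reads with Trim Galore, aligned them with STAR to GRCz10 and counted reads per Ensembl gene with HTSeq, and the deposited values are raw counts with no normalization. The counting strand option was not given in the sources used here.

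Counts of starved fish were filtered (filterByExpr) and scaled by TMM. They were tested for 21dpS over 3dpS with edgeR 4.0.16 (glmQLFit with robust = TRUE and its default prior count, glmQLFTest, R 4.3.3), with no covariate. A prior count of 2 went into the log2 CPM of the variance share, principal components and tank correlations. The SE of a log2 fold change was its absolute value divided by the square root of the F statistic of that test. Fed fish were fitted alone in the same way, and the difference of both changes was fitted over all 15 libraries. P-values were adjusted by Benjamini-Hochberg over all genes of a fit. Printed CPM used TMM factors of the 15 libraries. Replicates were separate fish, and no 2 libraries of a group agreed within counting noise. There were 2 starved tanks and 2 fed tanks. The p-values of the permutation and of fits without a tank term therefore rest on the spread between fish, not between tanks. Tank numbers were checked as pairs: deviations of same-tank fish had a mean correlation of -0.0482 over 8 pairs, against 0.0483 over 8 pairs of other tanks. Because deviations were taken from each group's own mean, both values nearly mirror each other by construction. They cannot decide whether fish of the same tank were alike. Gene symbols and neighbours came from RefSeq names and GRCz12tu, and no coordinates of GRCz10 were used here. Some results are not reported here. Libraries of refed fish were not used here.

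The 49 gene lists and the comparison were chosen with earlier results of these data known. Named genes were the 10 called genes with the smallest p in each direction among those without overlap, up to 4 called members of a list (or its 2 most abundant tested members), and called members of the study's own list with its 4 smallest p. Any other gene is introduced as picked with its values in view. Alternatives were DESeq2 1.42.0, other scaling, filters, tank as a block, shared fits, tank 2 alone and leaving out each fish. The fit without the listed pancreas genes, and the pancreas count under each alternative, were added after seeing the data. The edgeR steps were tested on simulated data.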

Additional observations from a re-analysis of the deposited data

Results flagged for a closer look

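Of 252 groups of 4 fish checked over the named genes, 13 held a fish whose gap to its nearest neighbour passed Dixon's 95% limit, where chance gives about 1 in 20. Values of such fish among genes that passed were as follows. *pglyrp6* had 216 CPM in 3dpS Sta2Gut2, against 60.7 to 82.5 CPM in the other 3dpS starved fish. *ERAP1* had 35.9 CPM in 21dpS Sta2Gut2, against 67.8 to 68.8 CPM in the other 21dpS starved fish. *si:ch211-163l21.7* had 108 CPM in 21dpS Sta2Gut2, against 75.2 to 79.96 CPM in the other 21dpS starved fish. *cel.1* had 28.9 CPM in 21dpS Sta2Gut1, against 6.397 to 7.37 CPM in the other 21dpS starved fish. *serinc4* had 208 CPM in 3dpS Sta2Gut2, against 333 to 342 CPM in the other 3dpS starved fish. In *pglyrp6*, *si:ch211-163l21.7* and *serinc4* the fish that stood apart lay farther from the other group than its fellows, and in *ERAP1* and *cel.1* it lay nearer.

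Among genes that did not pass, *tfr1b* had 264 CPM in 3dpS Sta2Gut2, against 364 to 368 CPM in the other 3dpS starved fish. *aco1*, the iron-sensing cytosolic aconitase gene (chosen after its values were seen), had 73.7 CPM in 21dpS Sta2Gut3, against 39.98 to 43.4 CPM in the other 21dpS starved fish. *mrps25*, a mitochondrial ribosomal protein gene, had 1073 CPM in 21dpS Sta2Gut2, against 1445 to 1474 CPM in the other 21dpS starved fish. *vtg5* had 19.9 CPM in 21dpS Sta2Gut1, against 3.198 to 5.895 CPM in the other 21dpS starved fish, and *vtg1* had 141 CPM in 21dpS Sta2Gut1, against 0 to 3.26 CPM in the other 21dpS starved fish, so both yolk protein genes were highest in the same fish. *ctss2.2*, a cathepsin S gene, had 195 CPM in 3dpS Sta1Gut1, against 62.2 to 78.1 CPM in the other 3dpS starved fish. *mhc2dab* had 513 CPM in 21dpS Sta1Gut2, against 45.2 to 84.01 CPM in the other 21dpS starved fish, and 672 CPM in 3dpS Sta2Gut2, against 86.4 to 142 CPM in the other 3dpS starved fish.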

How the results depend on the processing

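The 67 genes became 71 with relative log expression scaling, 66 without the 100 most counted genes, 95 with all 23 libraries and 61 with an absolute log2 fold change above 1. They became 188 with DESeq2 (130 higher, 64 of the 67 shared), 254 with no filter (167 higher, 65 shared), 44 with at least 10 reads in every library (23 higher, 34 shared), 30 with tank as a block (7 higher, 30 shared), 24 in the fit of 15 libraries (14 higher, 22 shared) and 26 within tank 2 alone (3 higher, 17 shared). Without the listed pancreas genes and their neighbours 28 passed, an alternative chosen after seeing the data. Leaving out one fish gave 21 to 82. The share that rose thus depended on the filter and the test, and the cause was not tested. Of the 67 genes, 15 were called in all 8 fits that left out one fish. The 2 genes of fed fish became 55 with DESeq2, 83 with no filter, 1 with at least 10 reads and 17 with tank as a block, and 0 to 6 with one fish left out. The 0 genes of the difference became 2 with DESeq2 and 25 with no filter, and 0 to 1 with one fish left out. The 21 drifting genes became 0 where the fed p had to pass adjusted and 32 where fed fish had to move at least 0.5 times as far, whatever the p, and 11 to 27 with one fish left out. The 14 pancreas genes became 3 with at least 10 reads (3 tested), 1 in the fit of 15 libraries (17 tested) and 8 within tank 2 alone (15 tested). They became 5 to 14 with one fish left out. Within tank 2 alone, *hmgcs1* had a log2 fold change of -0.16 and *atg4b*, an autophagy protease gene, of -0.01, beside 0.52 and 0.32 with both tanks, the only reversed directions among the named genes. The variance share stayed between 30.7 and 40.3%. Depth limited genes under the worth of 3 reads, 4.29 to 5.22 CPM in 21dpS starved fish.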

Other observations

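Further genes that passed were chosen after their values were seen. *mfi2*, melanotransferrin, an iron-binding membrane protein, averaged 41.2 ± 19.2 CPM in 21dpS starved fish and 134 ± 37.99 CPM in 3dpS starved fish (SD, n = 4 each), a log2 fold change of -1.77 (adjusted p = 0.0183), and it was marked as drifting. *asgrl1*, an asialoglycoprotein receptor-like lectin gene, averaged 62.4 ± 34.1 CPM in 21dpS starved fish and 326 ± 177 CPM in 3dpS starved fish (SD, n = 4 each), a log2 fold change of -2.45 (adjusted p = 0.0281). It overlaps *pla2g1b*, the pancreatic phospholipase A2, and *si:ch211-170d8.8*, and reads of these genes cannot be told apart. *si:ch211-240l19.8* averaged 12.8 ± 7.61 CPM in 21dpS starved fish and 154 ± 89.6 CPM in 3dpS starved fish (SD, n = 4 each), a log2 fold change of -3.64 (adjusted p = 0.00785). *letmd1*, a mitochondrial inner membrane protein gene within 5 kb of *cd63* and *gtsf1*, had a log2 fold change of 0.91 (adjusted p = 0.0334). For *rfxap*, a subunit of the factor that binds MHC class II promoters, which overlaps *smad9*, it was 1.71 (adjusted p = 0.0334). By edgeR, *asgrl1*, *si:ch211-240l19.8* and *letmd1* were marked as drifting too, with fed log2 fold changes of -2.64, -2.07 and 0.62. With tank as a block *asgrl1* (adjusted p = 0.0681, range over its alternatives 1.88e-12 to 0.211), *mfi2* (0.0661, 4.17e-05 to 0.310), *letmd1* (0.0681, 4.92e-05 to 0.369) and *rfxap* (0.0669, 5.16e-06 to 0.310) did not pass.

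A single gene took a large and uneven share of the reads. *si:dkey-57c15.11* (chosen after its values were seen) had 17520, 32380, 8065 and 4497 CPM in 21dpS starved fish, against 118900, 37420, 40730 and 123900 CPM in 3dpS starved fish, so the groups did not overlap but spread widely, and its log2 fold change was -2.43 (adjusted p = 0.141). Its highest values were in Sta1Gut1 and Sta2Gut3 at 3dpS and in Sta2Gut1 at 21dpS, as for the summed pancreas and red blood cell lists. Whether its reads share a source with those lists was not tested. Without the 100 most counted genes 66 genes passed, beside 67 with them. *eif3f*, a subunit of a translation initiation factor, had a log2 fold change of -1.3 (adjusted p = 0.0829) in starved fish and 0.88 in fed fish, and *cd74a*, the MHC class II chaperone, -0.75 (adjusted p = 0.142) and 0.58 (both chosen after their values were seen). The difference of the changes was -2.12 ± 0.52, unadjusted p = 0.000599, adjusted p = 0.342 for *eif3f* and -1.28 ± 0.39, unadjusted p = 0.00380, adjusted p = 0.361 for *cd74a* by edgeR.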
